A study of Arabidopsis thaliana with 2 samples.

Results

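The acidic stalk proteins P0, P1, P2 and P3 form a flexible arm on the large (60S) subunit of the cytosolic ribosome. Their 10 Arabidopsis thaliana genes examined here were chosen by locus, with no use of their signals in the rule. Earlier results of these data were, however, known at the choice. The 10 genes comprise 3 for P0, 3 for P1, 2 for P2 and 2 for P3. On the array 13286 genes could be named in all. Transcripts of shoots (aerial parts) of seedlings 14 days old were read on 1 Affymetrix array for Columbia-0 wild type and 1 for GFP-TIE1-15. The latter is a transgenic line with a fusion of GFP to TIE1, a repressor known to bind TCP transcription factors during leaf development. Both genotypes grew on half-strength Murashige and Skoog medium at 22 ± 2 °C with 16 h of light, after 3 days at 4 °C. The promoter of the transgene and the number of plants in each RNA sample are not given in the sources used here, and GFP-TIE1-15 is 1 line. TIE1 had no named probe set, so the transgene could not be checked on these arrays.

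P0 is known as the stem of the stalk, bound to the ribosomal RNA of the 60S subunit next to protein L12. The universal name of L12 is uL11. P1 and P2 are known to bind P0 as heterodimers, and P3 is a form known from plants. The acidic tails of these proteins are known to contact the GTPases of translation, such as elongation factor 2, and to stimulate their activity on the ribosome. P1 and P2 are also known to exchange between ribosome and cytoplasm, unlike most other ribosomal proteins.

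All 10 stalk genes had a higher signal in GFP-TIE1-15 than in wild type, by 1.32-fold to 2.003-fold in plain signals. The values are probe set signals on a linear scale, and both arrays had the same trimmed mean signal of 500.05. Each log2 ratio divides GFP-TIE1-15 by wild type after a pseudocount of 10% of that mean was added to the signals, a scale that understates the difference of dim genes. On this scale the folds ran from 1.32 to 1.92, and the median log2 ratio of the 10 genes was 0.59, a fold of 1.503, against a median of 0.01 over all 11308 measured probe sets. Measured here means that at least 1 of the arrays reached a signal of 200.02, which is 40% of the trimmed mean. All 10 genes did so on both arrays, so the filter fixed the sign of none of their ratios. A log2 ratio above 0 was found for 51.5% of all measured probe sets, and for 10 of 10 stalk genes. With earlier results known at the choice of genes, such counts are descriptions only. As each genotype has a single array, no test or error could be computed, and no difference has a replicate check. In such bulk samples a different share of cells of a type and a different RNA content per cell cannot be told apart.

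Of the 10 genes, 5 passed 1.5-fold in the direction of GFP-TIE1-15, a size reached in that direction by 6.78% of measured probe sets. None of the 10 was at least 2-fold higher, a size reached by 1.2%. None was 1.5-fold or 2-fold lower, against 6.86% and 2.39% of measured probe sets. The median of the 10 lay almost on the 1.5-fold line, a log2 ratio of 0.58. AT2G40010, at 0.60, was the gene just inside it, and AT2G27720, at 0.58 or 1.49-fold, the gene just outside, so the count of 5 rests on small differences. The 2-fold count depends on the pseudocount, since AT3G11250 had a ratio of plain signals of 2.003 and passed the line with a pseudocount of 1.

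**Figure D1:**
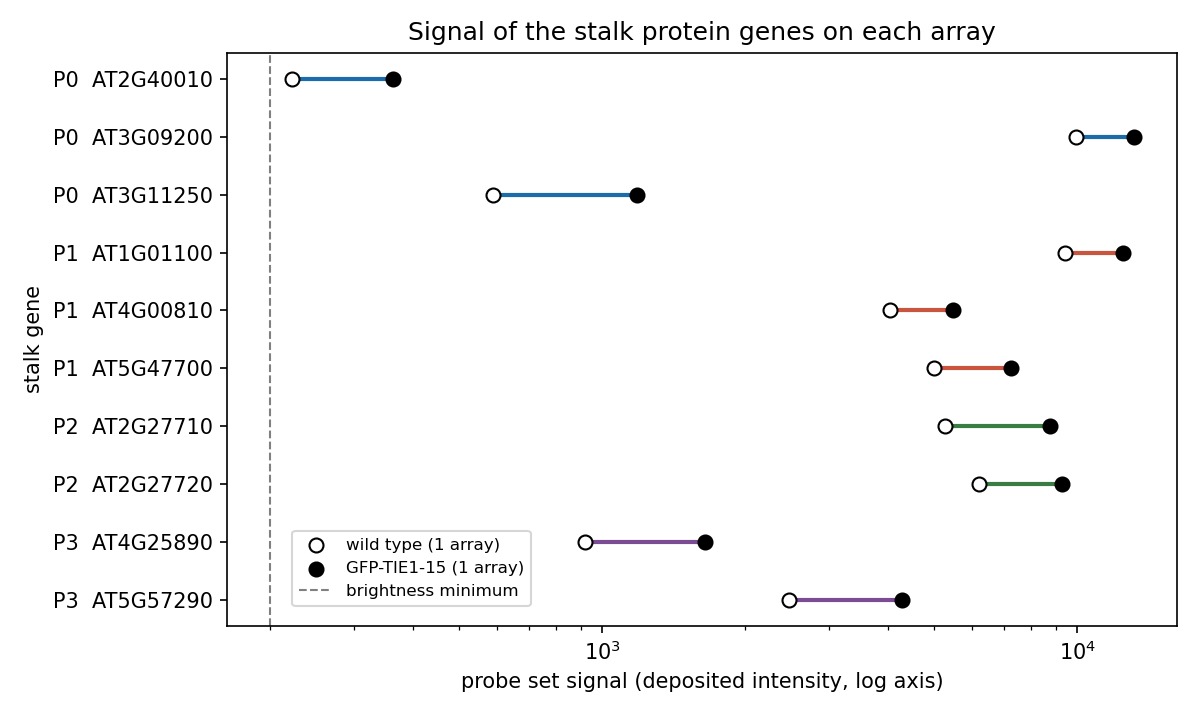
Signal of each of the 10 stalk genes on the wild-type array (open circle) and the GFP-TIE1-15 array (filled circle), in deposited intensity units on a log axis, with lines coloured by class. The GFP-TIE1-15 signal lies to the right of the wild-type signal in all 10 genes, and all signals lie above the brightness minimum of 200.02, from 222.6 to 13175.

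The 3 genes of P0, the stem that carries the other stalk proteins, differed most among themselves. The signal of AT3G11250 was 589.1 in wild type against 1180 in the transgenic line, a log2 ratio of 0.94, the highest of the 10. Only 166 of the 11308 measured probe sets had a higher ratio. AT2G40010 had 222.6 in wild type against 363.3 in the transgenic line, a log2 ratio of 0.60. It was the dimmest stalk gene, just above the minimum in wild type. AT3G09200 had 9943 in wild type against 13175 in the transgenic line, a log2 ratio of 0.40 or 1.32-fold. Signals of different probe sets cannot be set against each other as levels, so which P0 gene supplies most transcript was not determined.

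The 3 genes of P1, a tail-bearing partner of P2 on the stalk, had the lowest class median, 0.43 in log2 ratio. AT1G01100 had 9399 in wild type against 12450 in the transgenic line, a log2 ratio of 0.40, the lowest of the 10. AT4G00810 had 4041 in wild type against 5474 in the transgenic line, a log2 ratio of 0.43. AT5G47700 had 4993 in wild type against 7240 in the transgenic line, a log2 ratio of 0.53. None of the 3 P1 genes reached 1.5-fold, nor did most measured probe sets, of which 6.78% were that much higher. The 3 genes spanned 0.13 in log2 ratio.

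The P2 genes AT2G27710 and AT2G27720, which encode the partner of P1, neighbour each other on chromosome 2. AT2G27710 had 5257 in wild type against 8758 in the transgenic line, a log2 ratio of 0.73 or 1.66-fold. AT2G27720 had 6214 in wild type against 9284 in the transgenic line, a log2 ratio of 0.58. The tandem genes thus differed by 0.16 in log2 ratio.

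The P3 genes, of the form known from plants, had the highest class median, 0.80 in log2 ratio. AT4G25890 had 918.2 in wild type against 1648 in the transgenic line, a log2 ratio of 0.81 or 1.75-fold. AT5G57290 had 2468 in wild type against 4284 in the transgenic line, a log2 ratio of 0.78 or 1.72-fold. Both P3 genes were past 1.5-fold, a size reached by 6.78% of measured probe sets, and they differed by only 0.03 in log2 ratio.

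By class median the order of log2 ratios was P3 at 0.80, P2 at 0.65, P0 at 0.60 and P1 at 0.43. For the 10 chosen loci, P3 was highest and P1 lowest under every scaling, pseudocount and filter tried. The order of P3 and P2 depends on the choice of loci. The P2 type genes AT3G44590 (0.92) and AT3G28500 (0.96, its sign fixed by the filter) were outside it. Both lay above the 2 P3 genes and are not in the P2 median. P2 and P0 changed places with a pseudocount of 1, where P0 was at 0.70 and P2 at 0.66, and with the minimum raised to 100% of the trimmed mean, where P0 was at 0.67 over the 2 genes left. The P0 genes alone, from 0.40 to 0.94, spanned nearly the whole range of the 10. The class medians spanned 0.36. With 2 or 3 genes a class and 1 array per genotype, the difference between classes was not tested.

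The spread among measured probe sets of like signal gives a scale for these values. It is the scaled median absolute deviation of the log2 ratio over the 500 measured probe sets nearest in mean signal, and it describes the spread among genes, not between plants. It ran from 0.29 to 0.38 around the 10 stalk genes. AT3G11250 lay 3.21 such spreads above the local median, AT5G57290 2.68 and AT4G25890 2.61. The other 7 stalk genes lay 1.25 to 1.98 spreads above it, so taken singly they were inside the range of many probe sets of like signal. Between the lowest and the highest stalk signal in wild type there were 10026 other measured probe sets, whose log2 ratios had a median of -0.01. Of these, 5.12% were at least 1.5-fold higher, against 6.78% of all 11308 measured probe sets. This band holds most measured probe sets, so it is a wide one. It is set on the wild-type signal alone and so leaves out probe sets that reached the minimum in GFP-TIE1-15 only.

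**Figure D2:**
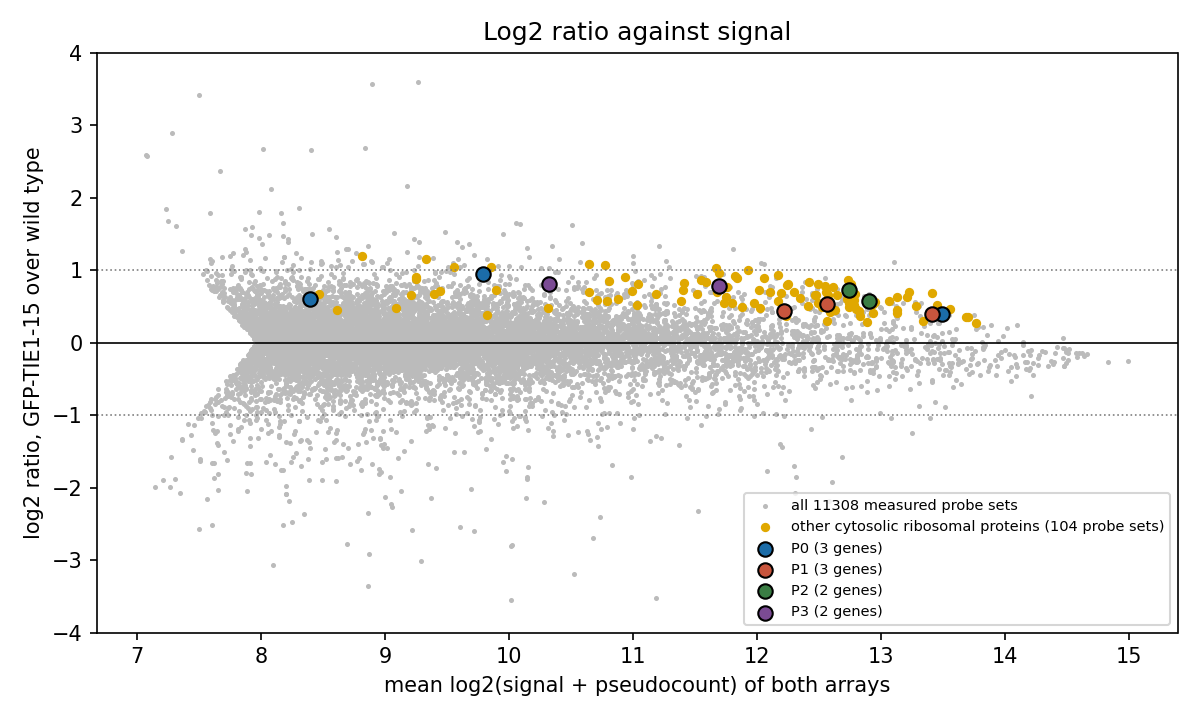
Log2 ratio between the genotypes (GFP-TIE1-15 over wild type, vertical axis) against the mean log2 signal of both arrays, pseudocount added (horizontal axis) for the 11308 measured probe sets (grey), other cytosolic ribosomal protein genes (yellow) and the stalk genes by class. The 10 stalk genes lie above 0 and below the dotted line of 2-fold, among the yellow points.

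The brighter stalk genes tended to have the smaller ratios, with exceptions. The dimmest, AT2G40010 (222.6 in wild type), was only at 0.60. AT2G27710 (5257) was at 0.73, above the dimmer AT4G00810 (4041) at 0.43. Across the 10 genes, Spearman's rho between the wild-type signal and the log2 ratio was -0.73, a description over 10 genes read on the same 2 arrays, in which the wild-type signal enters both measures. The 5 brighter genes in wild type had a median log2 ratio of 0.53 and the 5 dimmer genes 0.78. Among 104 other measured cytosolic ribosomal protein genes the rho was -0.56. The 41 of these above the median stalk signal in wild type, 4517, had a median ratio of 0.52, and the 63 below it 0.72. The highest stalk signal was 13175, and the highest signals on the arrays were 35591 (wild type) and 29918 (transgenic line). A loss of response at high signal was not tested.

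Other genes of the stalk region that were measured also had higher signals in the transgenic line. The 3 genes of L12, the protein at the base of the stalk, were all at least 1.5-fold higher, with a median log2 ratio of 0.81. That size was reached by 6.78% of all measured probe sets. It was also reached by 38 of the 63 measured genes of other 60S proteins, these 3 included. AT5G60670 had 3066 in wild type against 5739 in the transgenic line (0.89), AT2G37190 had 5187 and 9134 (0.81), and AT3G53430 had 5564 and 8868 (0.67). All 3 lay above the stalk median, as did 60 of the 104 other measured cytosolic ribosomal protein genes, these 3 included.

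Of the 3 further P2 type genes, which lay outside the 10 chosen loci, 2 were measured. AT3G44590 had 2123 in wild type against 4056 in the transgenic line, a log2 ratio of 0.92. AT3G28500 had 92.1 and 226.8, and reached the minimum in GFP-TIE1-15 only, so its ratio of 0.96 had its sign fixed by the filter. AT5G40040 had 5.0 and 9.4 and was not measured. AT1G25260, which is like yeast Mrt4, a nuclear protein that holds the place of P0 in 60S precursors, had 1514 and 2469, a log2 ratio of 0.69.

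Few of the listed translation factors could be read, and the elongation factor 2 genes AT1G56070 and AT3G12915 had no named probe set. Of 12 listed genes of elongation factor 2 and of elongation factor 1 subunits, 2 had a probe set of their own, and they lay on opposite sides of 0. AT5G19510 had 6338 in wild type against 8559 in the transgenic line, a log2 ratio of 0.43. AT5G12110 had 461.9 and 209.5, a log2 ratio of -0.98. Both encode the alpha subunit of elongation factor 1B, which reloads elongation factor 1A with GTP. Probe sets that several genes share were used for no gene here. Of these, 1 shared by 4 of the listed elongation factor 1A genes had 22144 in wild type against 23220 in the transgenic line (0.07), and 1 shared by 2 other listed subunit genes had 9633 and 11923 (0.31). AT1G18070, of the release factor 3 type, was at 0.34, with 1091 and 1393. The 7 listed genes of casein kinase 2, known to phosphorylate the acidic tails, and the 5 listed plastid stalk genes had no named probe set and were not analysed here. All 4 listed organelle-type L10 and L12 genes lay above 0, as did 51.5% of all measured probe sets, and their median was 0.44. AT3G12370, of the L10 type, was at 0.19, and the L12 type genes AT1G70190, AT3G06040 and AT4G37660 were at 0.33, 0.54 and 0.62. Of the 4, AT4G37660 alone was at least 1.5-fold higher, a size reached by 6.78% of all measured probe sets. With so few genes these counts are descriptions only.

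The stalk genes lay within the range of the other cytosolic ribosomal protein genes. The other 60S list, in which the 3 L12 genes are counted, had 63 measured genes with a median log2 ratio of 0.66, and the 40S list had 41 with a median of 0.63. These medians exceeded that of the stalk genes by 0.08 and 0.04. All 104 measured genes lay above 0, from AT5G20290 (S8) at 0.28 to AT5G39850 (S9) at 1.20, against 51.5% of all measured probe sets above 0. They are part of 211 listed genes, of which 119 had a named probe set of their own. The genes below the minimum had log2 ratios on both sides of 0, such as AT2G47570 at -0.63 and AT1G02830 at 0.92. Of the 104, 60 were at least 1.5-fold higher and 8 at least 2-fold higher, while 5 and 0 of the 10 stalk genes were. Over all measured probe sets these shares were 6.78% and 1.2%. AT3G11250 was below 9 and above 95 of the 104, and AT3G09200 and AT1G01100 were each above 9 and below 95. The stalk genes therefore covered most of the range of the other genes, and no test of a difference was possible.

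**Figure D3:**
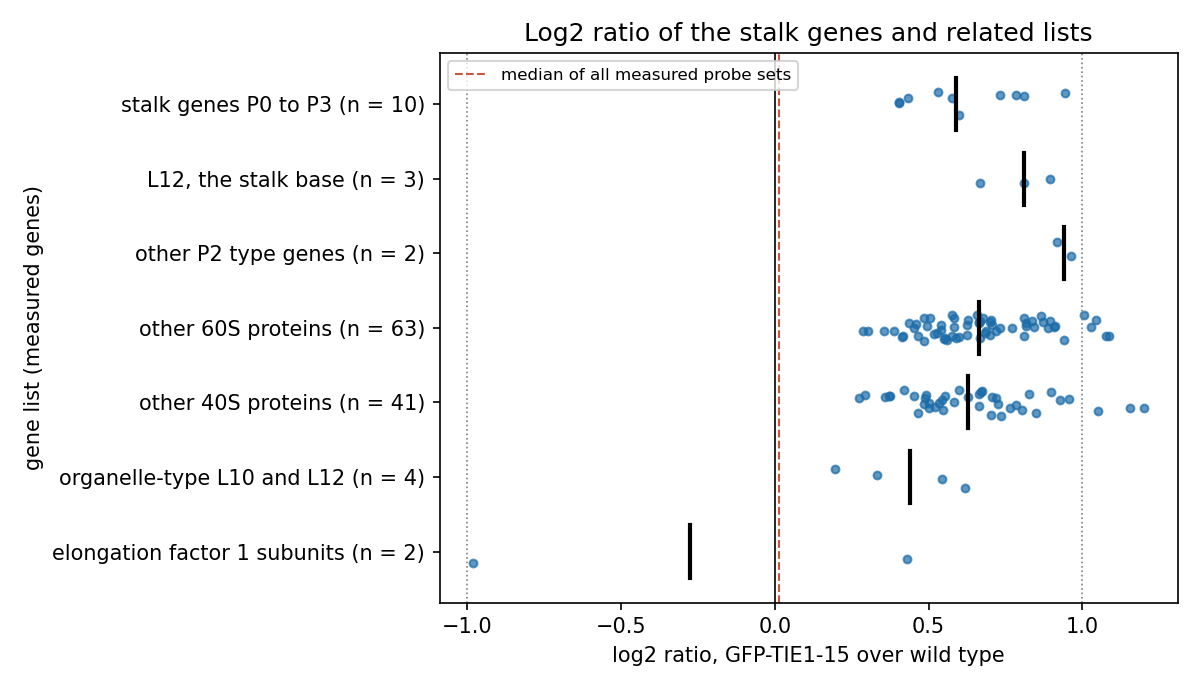
Log2 ratio between the genotypes (GFP-TIE1-15 over wild type) for each measured gene (points) of the stalk genes and 6 related lists, with the list median as a black bar, 0 as a solid line and 2-fold as dotted lines. The stalk median of 0.59 lies beside 0.66 for other 60S proteins, 0.63 for 40S proteins and 0.81 for L12, and the median of all measured probe sets (dashed) is 0.01.

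Paralogs of 1 ribosomal protein often differed by less than the P0 genes did. Among 11 other families with 3 measured genes, the highest and lowest log2 ratio differed by a median of 0.34, from 0.10 to 0.56. The 0.54 of P0 was wider than 10 of these 11 families, and the 0.13 of P1 narrower than 10 of them. Among 21 other families with 2 measured genes the median difference was 0.14. The 2 P2 genes among the chosen loci, at 0.16, lay near that middle, and the P3 genes, at 0.03, were closer than 20 of the 21. The P2 value leaves out the measured P2 type genes AT3G44590 (0.92) and AT3G28500 (0.96, its sign fixed by the filter). Both lay above the 2 P2 genes. The other families counted all their listed measured genes, so the 0.16 does not give the spread of all P2 type genes.

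Genes next to the stalk genes gave little to compare. Of 18 neighbouring positions outside the 10 loci, 9 held a gene with a named probe set and 4 a measured gene. AT5G57300, beside AT5G57290, was at 0.40, AT5G47710, beside AT5G47700, at 0.30 and AT2G27730, beside AT2G27720, at 0.14. AT4G25900, beside the P3 gene AT4G25890, was at -0.38, opposite to its neighbour. None of the 4 was 1.5-fold apart, a size reached by 6.78% (higher) and 6.86% (lower) of all measured probe sets. Each of the 4 had a lower log2 ratio than the stalk gene beside it. So did most probe sets, as the stalk genes lay above 86.17% to 98.52% of all measured ones. The lower ratios of the neighbours therefore say little.

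With 1 array per genotype a pattern is a single ratio, so likeness to the stalk genes is closeness to their median log2 ratio. The candidates were 2803 probe sets of 1 named gene each, with signals of at least the trimmed mean on both arrays. The 5 nearest were those of AT3G09630 (an L4 gene) at 0.59, NRPB6B (AT2G04630) at 0.59, AT5G19290 at 0.59, AT1G74270 (an L35a gene) at 0.58 and AT2G31790 at 0.59. Within 0.1 of the median lay 135 of the 2803 probe sets. Of the 135, 39 (28.9%) belonged to cytosolic ribosomal protein genes other than the stalk genes, against 93 (3.32%) of the 2803.

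Marker genes of the tissue and of dividing cells had these values on the same arrays. The leaf genes LHCB4.1, at 25525 in wild type against 20353 in the transgenic line, and RCA, at 21195 and 16628, were bright in these aerial parts. They were the 2 of 8 listed leaf markers with a named probe set, and their median log2 ratio was -0.34. Of 6 listed root markers, PYK10 had 6746 and 5954, and the 3 others with a named probe set were below the minimum. Of 15 listed genes of dividing cells, the Aurora kinase genes AUR1 and AUR2 had a named probe set, with log2 ratios of 0.58 and 0.61, close to the stalk median. Their signals were 337.9 and 211.8 in wild type against 528.2 and 348.9 in GFP-TIE1-15. None of the 5 listed meristem markers had a named probe set. The part of dividing tissue in the stalk difference was not tested.

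Each stalk gene had 1 probe set, which the platform annotation gives to that gene alone. Signal from near-identical transcripts of the same class could still be shared between probe sets, which was not tested. Over the scalings and pseudocounts tried, the median log2 ratio of the 10 genes ran from 0.55 to 0.64 and every gene stayed above 0. AT3G11250 ran from 0.87 to 1.00 and crossed the 2-fold line with a pseudocount of 1. AT2G40010, the dimmest, moved most, from 0.49 to 0.70, and the P3 genes stayed between 0.75 and 0.84.

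**Figure D4:**
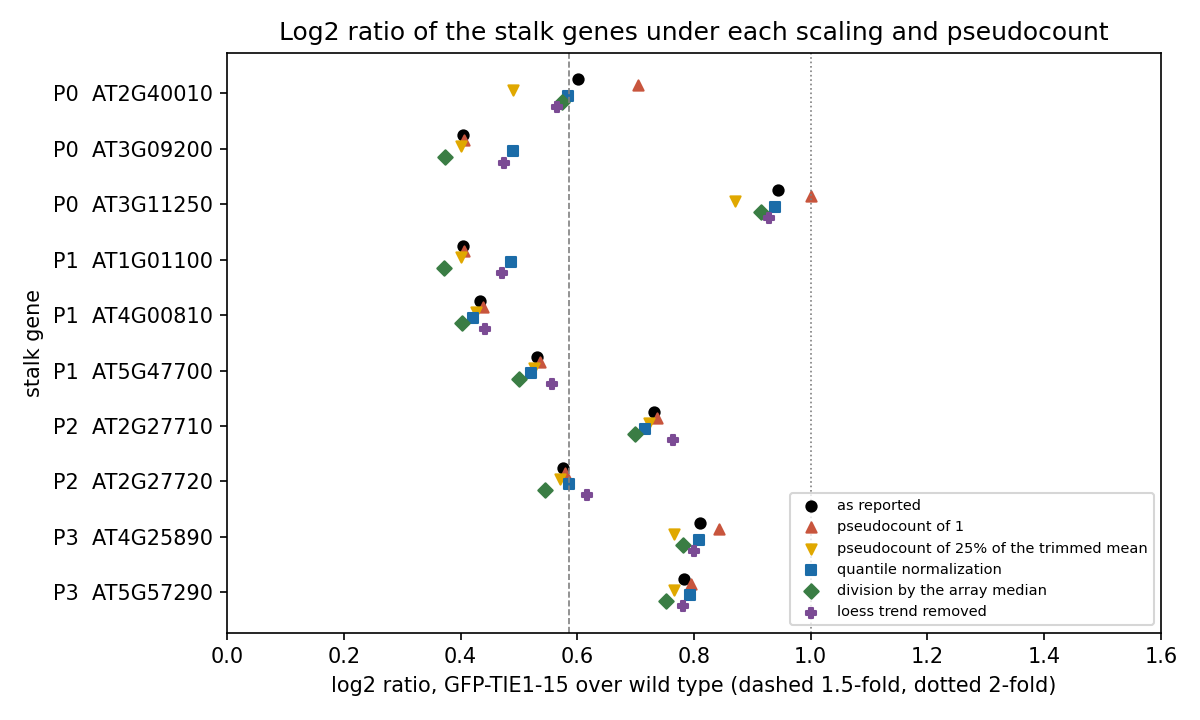
Log2 ratio of each stalk gene as reported (black) and under 2 other pseudocounts and 3 other scalings (coloured marks), with 1.5-fold dashed and 2-fold dotted. All values lie above 0, from 0.37 to 1.00, and those of AT2G40010 spread the widest.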

How the data were processed

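The authors deposited 1 table of intensity values, a linear probe set signal for 22810 probe sets on each of 2 arrays. The submitters' processing notes name GCOS 1.0 and MAS5, and no scaling target. The trimmed mean (2% removed at each end) was 500.05 on both arrays and median signals were 169.3 and 173.05, so the values were used as deposited. The number of arrays limits the precision. Probe sets with 1 gene in the platform annotation (13513) were matched to TAIR10.1 RefSeq loci (13436), used for names and neighbours only. The pseudocount was 10% of the trimmed mean and the brightness minimum 40%. Control probe sets were left out. The 10 genes and the lists were chosen with earlier results of these data known. List members, locus numbers, were written from general knowledge of Arabidopsis. Every gene with a probe set in the stalk lists is named, as are the highest and lowest of the other ribosomal proteins, the measured neighbours and the 5 genes nearest in ratio. The script was tested on simulated data. Alternatives were other pseudocounts, scalings, minimums and removal of shared probe sets. No sequence was used here. Tools were Python 3.11.15 with pandas 2.3.3, numpy 2.4.6, statsmodels 0.14.6 (loess), scipy 1.17.1 and, for figures, matplotlib 3.10.9.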

Additional observations from a re-analysis of the deposited data

How the results depend on the processing

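No paired analysis was possible because there was a single array of either genotype. Each single stalk gene kept its sign and moved by less than the local spread in all 79 alternative values; settings that change only the filter or drop shared probe sets could not change a ratio, and the minimum of 100% of the trimmed mean removed AT2G40010. The count of stalk genes at least 1.5-fold higher was 4 or 5, and that at least 2-fold higher was 1 with a pseudocount of 1, where AT3G11250 was at 1.00. Among related lists, the further P2 type genes, at 0.94, were at 1.11 with a pseudocount of 1, 0.80 with one of 25% of the trimmed mean and 0.90 after removal of the loess trend. The genes of dividing cells, at 0.59, were at 0.68 and 0.49 with these pseudocounts, 0.56 after division by the array median and 0.56 after removal of the loess trend. The leaf genes, at -0.34, were at -0.14 after quantile normalization, -0.37 after division by the median and -0.22 after removal of the loess trend. The elongation factor median of -0.27 was 0.43 with the minimum of 100%, which left 1 gene of 2. The cause of the other shifts was not tested. The median of all measured probe sets ran from -0.02 to 0.01 over the scalings. Signal over background limits what dim genes show, and detection calls were not used.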
